A study of Mus musculus with 16 samples.

Results

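The genes described here are 9 members of the pathway that makes and breaks down heme, of 25719 genes in the deposited table of the livers. In pathway order they are Alas1, Alad, Uros, Urod, Cpox, Ppox and Fech on the side of synthesis and Hmox1 and Blvrb on the side of breakdown. They were found in the table by gene name and were chosen by results of these same libraries, with Alad singled out for its level in the Klrk1-/- mice. For that reason the values of Alad are given as a description without a test. The tests of the other 8 genes come from fits across all genes and are not independent evidence, because the list was drawn up with earlier results known. Whole-liver RNA was sequenced in 16 libraries, each counted here as 1 mouse, from male mice that were 8 to 12 weeks old when put on the diets, to ask what a steatosis-inducing diet does to the liver with and without the immune receptor NKG2D. WT mice were C57BL6J. The Klrk1-/- mice lack the gene that encodes NKG2D (a receptor on natural killer and T cells), and their strain is labelled NKG2D. Mice ate normal chow (NCD) or a steatosis-steatohepatitis diet (SSD, enriched in fat, fructose and cholesterol) for 3 weeks, which gave 4 WT mice on NCD, 5 WT mice on SSD, 4 Klrk1-/- mice on NCD and 3 Klrk1-/- mice on SSD. The sources used here do not call the Klrk1-/- mice littermates of the WT mice, so the deletion of Klrk1 and other differences between the mouse lines cannot be told apart.

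Heme is the iron-containing ring that carries oxygen in hemoglobin and electrons in cytochromes, and after the bone marrow the liver is its main producer, chiefly for its cytochrome P450 enzymes. Synthesis starts in mitochondria, where ALAS1 joins glycine and succinyl-CoA in the step that sets the rate in liver, continues in the cytosol with ALAD, UROS and UROD, and returns to mitochondria for CPOX, PPOX and FECH, the last of which inserts the iron. Heme oxygenase, of which HMOX1 is the inducible form, opens the ring to biliverdin, and the biliverdin reductases BLVRA and BLVRB reduce it. In liver HMOX1 is known as an enzyme of macrophages, among them the Kupffer cells that clear old red blood cells, as well as a stress-induced enzyme of hepatocytes.

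Libraries held 19892025 to 28936707 reads on genes, and the 9 genes were read at 234 reads (Hmox1 in 1 Klrk1-/- mouse on NCD) to 15664 reads (Alas1 in 1 WT mouse on SSD). Values below are normalized counts, the reads of a gene divided by 1 factor per mouse. Klrk1 itself lay at 20.1 to 71.1 normalized counts in the WT mice and at 0.966 to 8.71 in the Klrk1-/- mice, without overlap. The summed level of 6 hepatocyte markers was 2280102 to 2579871 in WT mice on NCD, 1512881 to 1937601 in WT mice on SSD, 2193820 to 2892545 in Klrk1-/- mice on NCD and 2051471 to 2214618 in Klrk1-/- mice on SSD. The summed level of 13 Kupffer cell and macrophage markers was 5992 to 6583, 8255 to 21115, 5213 to 6358 and 6310.5 to 7967 in the same order of groups. Of 4 B cell markers the sum was 462 to 1172 in WT mice on NCD and 1614 to 2085 in Klrk1-/- mice on NCD, without overlap, and 186 to 301 and 209 to 255 on SSD. Stellate cell markers summed to 3690.0 to 4752, 4793 to 15822, 3631 to 5122 and 5834 to 7028 in the order above. The sums of 7 T and NK cell markers were 136 to 142, 59.6 to 97.6, 124 to 204 and 86.7 to 89.8, and those of 5 markers of sinusoidal endothelium were 1999.5 to 3369, 3152 to 3913, 2793 to 3233 and 2943 to 3860. WT SSD replicate 1 stood apart from its group over all genes. Its chi-square against the other 4 mice, averaged over genes, was 69.4 to 95.6, where those 4 gave 17.9 to 34.1 among themselves. Klrk1-/- NCD replicate 3 also stood apart, at 34.2 to 40.5 against the other mice of its group. Those mice gave 13.5 to 16.4 among themselves. WT mice on NCD also differed widely, at 17.4 to 61.9 between pairs, the highest between replicates 2 and 5. The part of these cell markers in the values below was not tested unless stated, and in whole liver fewer cells of a type and less RNA per cell cannot be told apart.

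Differences are log2 fold changes on the log2(normalized count + 1) scale with their standard error (SE), and a gene passed the test at a Benjamini-Hochberg adjusted p under 0.05 from limma, adjusted over all genes tested, with no limit on the fold. Counts of the genes that passed cover the 8 members other than Alad. On SSD against NCD in WT mice, 5 of the 8 passed, Hmox1 and Blvrb upward and Uros, Urod and Ppox downward, where 34.9% of all genes tested passed. In Klrk1-/- mice, SSD against NCD gave 5 of 8, with Hmox1, Blvrb and Fech upward and Uros and Ppox downward, against 29.4% of all genes. Between Klrk1-/- and WT mice on NCD 4 of 8 passed, Ppox upward and Alas1, Cpox and Hmox1 downward, against 13.1% of all genes. On SSD only Hmox1 passed between the genotypes, downward, against 2.9% of all genes. That background is 381 genes, and it was 717 without WT SSD replicate 1, 45, 87 and 62 without Klrk1-/- SSD replicates 1, 2 and 3, and 167, 149 and 237 without WT SSD replicates 2, 3 and 4. On NCD it was 1679 genes, and 717 to 1074 without WT replicate 1, 2 or 3 or Klrk1-/- replicate 2 or 3. The diet by genotype interaction, which asks whether the effect of SSD differed between the genotypes, was passed by 0 of the 8 and by 0.88% of all genes. The median log2 fold change of the 8 genes was -0.11, 0.32, -0.11 and 0.11 in the 4 comparisons in that order and 0.33 in the interaction, with medians over all genes between -0.00203 and 0.00175. The 4 comparisons share groups of mice with each other, so their values are not independent. The labels do not say in words that each library is a separate animal or cage, so p-values measure only the spread between these libraries.

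**Figure D1:**
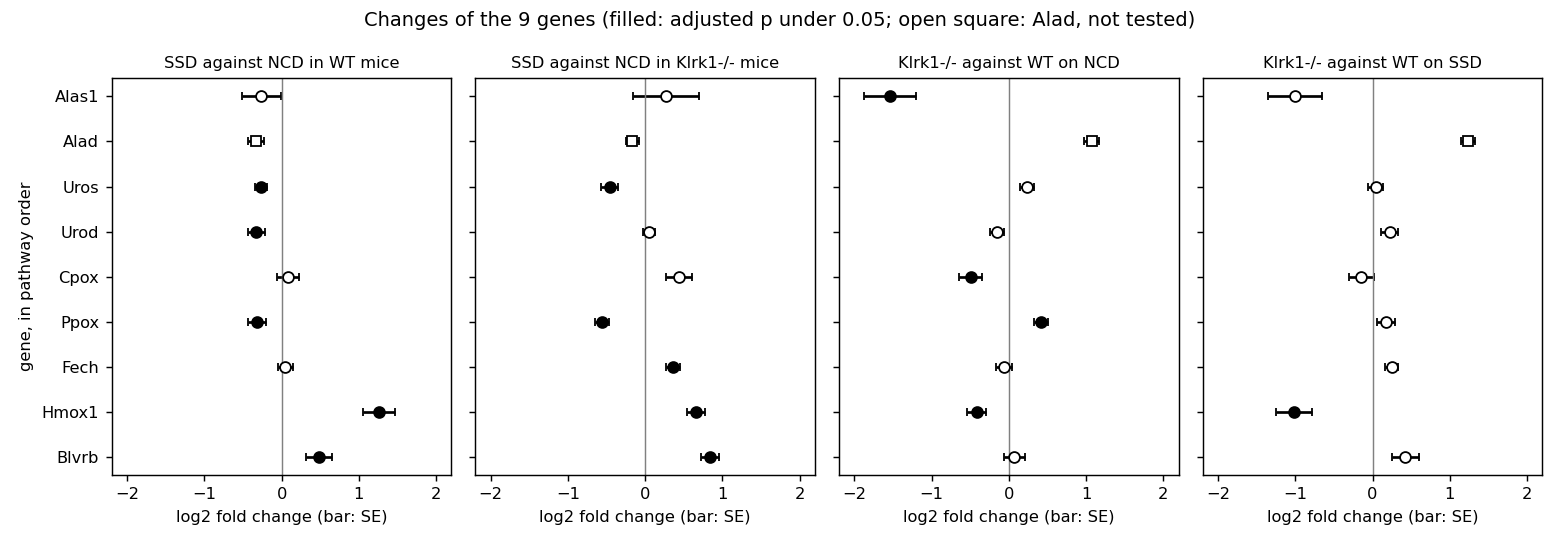
Log2 fold change (x axis, bars show the SE) of the 9 genes in pathway order (y axis) in 4 comparisons, 1 per panel; filled circles passed an adjusted p of 0.05, open circles did not, and the open square is Alad, which was not tested. Hmox1 lies to the right of 0 in both diet comparisons, at 1.26 in WT mice and 0.66 in Klrk1-/- mice, and Alad lies at 1.07 and 1.24 between the genotypes.

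Alas1, the gene of the first enzyme (chr9:106110654-106125853 on GRCm39, minus strand), varied widely between mice of a group. Its normalized counts were 11669, 7469, 7706 and 12011.5 in the WT mice on NCD and 1775, 6197, 2063 and 4969 in the Klrk1-/- mice on NCD, and every Klrk1-/- mouse lay below every WT mouse. On SSD the WT mice had 7819, 4566, 9205, 7258.5 and 12789 and the Klrk1-/- mice 2370.0, 6811 and 3771, with overlap between the genotypes. Alas1 fell by 1.54 ± 0.34 on the log2 scale in Klrk1-/- against WT mice on NCD (adjusted p = 0.0138), where the mean was 0.386 of the WT mean. This call held with each of the 8 mice left out in turn (adjusted p 0.00502 to 0.0442), and was lost in limma without a variance trend (adjusted p = 0.0575) or with robust variances (adjusted p = 0.0795). On SSD the log2 difference between the genotypes was -1.003 ± 0.35 (adjusted p = 0.137), which did not pass. SSD against NCD gave -0.27 ± 0.25 in WT mice (adjusted p = 0.441) and 0.27 ± 0.43 in Klrk1-/- mice (adjusted p = 0.671), and neither passed. The second of these turned sign without Klrk1-/- NCD replicate 1 (-0.02) or without Klrk1-/- SSD replicate 2 (-0.12).

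Known regulators of Alas1 in liver include PGC-1alpha, the coactivator encoded by Ppargc1a that raises Alas1 in fasting, and REV-ERBalpha, the repressor of the circadian clock encoded by Nr1d1. On NCD Ppargc1a stood at 94.1, 116, 155 and 146 normalized counts in WT mice and 278, 246, 399 and 319 in Klrk1-/- mice. Nr1d1 stood at 894, 1128, 778 and 1346 in WT mice and 1281, 2918, 3573 and 2329.7 in Klrk1-/- mice, and 1 Klrk1-/- mouse lay within the WT range. Both rose in Klrk1-/- against WT mice on NCD, Ppargc1a by 1.28 ± 0.18 (adjusted p = 0.00121) and Nr1d1 by 1.22 ± 0.26 (adjusted p = 0.0113) on the log2 scale. The call of Nr1d1 was lost in limma without a variance trend (adjusted p = 0.0527) or with robust variances (adjusted p = 0.0577). On SSD the differences were 0.53 ± 0.20 (adjusted p = 0.162) for Ppargc1a and 0.91 ± 0.22 (adjusted p = 0.0606) for Nr1d1, and neither passed. The hour at which the livers were taken is not given in the sources used here. Whether these genes have a part in the level of Alas1 was not tested.

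Alad encodes the enzyme that joins a pair of 5-aminolevulinate molecules to porphobilinogen, the second step and the one that lead inhibits. The gene lies at chr4:62427406-62438155 on the minus strand. Its normalized counts were 4831, 3663, 4125.5 and 4632.5 in WT mice on NCD and 3039.7, 3762, 3541, 3579 and 3189 in WT mice on SSD. Livers of Klrk1-/- mice had 8653, 8696.5, 9189 and 9632.5 on NCD and 8209, 8459 and 7510.1 on SSD. All 7 Klrk1-/- mice thus lay above all 9 WT mice, whichever diet they ate. On NCD the mean of the Klrk1-/- mice was 9043 ± 462 (SD, n = 4) and that of the WT mice 4313 ± 525.5 (SD, n = 4), a ratio of 2.10 that ran from 1.79 for the lowest Klrk1-/- against the highest WT mouse to 2.63 for the opposite pair. On SSD the means were 8059 ± 492 (SD, n = 3) and 3422 ± 298 (SD, n = 5), a ratio of 2.35 with a range over pairs from 1.996 to 2.78. The log2 differences were 1.07 and 1.24 on NCD and on SSD. Within a genotype the diets lay closer together. SSD against NCD was -0.33 on the log2 scale in WT mice, where 1 mouse on SSD lay within the range of the mice on NCD, and -0.17 in Klrk1-/- mice, where the groups did not overlap. With every mouse scaled to the same total, which moved the median of all genes by 0.34 (WT mice) and 0.25 (Klrk1-/- mice), these 2 diet differences of Alad turned to 0.02 and 0.09, while the genotype difference was 1.12 on SSD. The level of Alad per kb of transcript was below that of Alas1 in WT mice and above it in Klrk1-/- mice: 978 ± 119 and 2845 ± 721 normalized counts per kb in WT mice on NCD (SD, n = 4) against 2050.0 ± 105 and 1099 ± 638 in Klrk1-/- mice on NCD (SD, n = 4), by the length of the canonical transcript. The deposited gene lengths gave the same order of the 2 genes in those groups, with means of 3065 and 6064 in WT mice and 6427 and 2341 in Klrk1-/- mice. The 2 genes did not overlap in either of those groups by the canonical length, and on SSD the means had the same order with overlap in Klrk1-/- mice.

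Of the bases before the start of Alad, 2 stretches are shown because they hold matches that the promoter windows of Uros and Urod also have, an E-box (CACGTG) or an Sp1 box (GGGCGG). Both are from the RefSeq promoter table (GRCm38.p6), placed by their only match in GRCm39, read 5′ to 3′ on the strand of the gene, with the matches in capitals. The first lies at chr4:62438388-62438417 (-117 to -88 from the upstream of its 2 RefSeq starts) and the second at chr4:62438333-62438362 (-62 to -33).
Alad E-box: gctccgaatgccCACGTGgaccccctcggg
Alad Sp1 boxes: gctgggGGGCGGggagacGGGCGGgctctc
Windows of 250 bases before the start were found for 7 of the 9 genes. Alas1, Alad, Uros and Blvrb had 2 windows each, and a gene was counted if either held the match, while the shares of all windows are per single window. Counting both strands, an E-box was present for 3 of them (Alad, Uros and Urod) and in 6.02% of 32851 windows of all genes, and an Sp1 box for 5 of them (Alas1, Alad, Uros, Urod and Blvrb) and in 32.7% of all windows. The core of an NRF-1 site (GCGCATGC, in 2.26% of all windows) was found for Alas1. A TATA box (TATAAA, 12.4%), a GATA site (AGATAA, 9.99%), the core of an antioxidant element (TGACNNNGC, 10.2%) and a nuclear receptor half-site (AGGTCA, 14.0%) were found for 0 of the 7, which says only that these letters are not in these windows. Such a match describes the letters only and does not show that a factor binds.

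Alad is known to be duplicated in some inbred strains of mice, and its neighbours on chromosome 4 were therefore described as well. Of 7 genes within 100 kb, 3 were expressed highly enough to be tested. Distances between genes are taken here between their lowest coordinates on the chromosome, whichever strand they are on. Hdhd3, a haloacid dehalogenase-like gene, lies at -10161 bases from Alad by that measure. It had 1239.7, 784, 935 and 1087 normalized counts in WT mice on NCD and 1466, 1467, 1125.5 and 1772.5 in Klrk1-/- mice on NCD. On SSD it had 352, 584, 471, 389 and 365 in WT mice and 983, 712 and 908.5 in Klrk1-/- mice, with every Klrk1-/- mouse above every WT mouse. Hdhd3 rose in Klrk1-/- against WT mice by 0.53 ± 0.15 on NCD (adjusted p = 0.0387) and by 1.02 ± 0.17 on SSD (adjusted p = 0.0185), ratios of 1.44 and 2.01. On NCD the groups overlapped, and the call was lost on leaving out any of 5 mice (WT replicates 2 and 3 and Klrk1-/- replicates 1, 2 and 4, adjusted p up to 0.104) and with no variance trend (adjusted p = 0.0948). On SSD it was lost without Klrk1-/- replicate 1 or 3 (adjusted p up to 0.102). On SSD Hdhd3 fell by 1.23 ± 0.17 on the log2 scale in WT mice (adjusted p = 0.000212) and fell by 0.74 ± 0.15 in Klrk1-/- mice (adjusted p = 0.00319).

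Pole3, a histone-fold subunit of DNA polymerase epsilon that lies 13480 bases to the other side by the same measure, showed another picture. It had 449, 382, 341.5 and 379.6 normalized counts in WT mice on NCD and 361, 412, 325 and 374 in Klrk1-/- mice on NCD. On SSD the values were 395, 402, 356, 439 and 383 in WT mice and 376, 370.2 and 315 in Klrk1-/- mice. The genotypes overlapped on both diets, the ratios of Klrk1-/- to WT were 0.948 and 0.895, and neither log2 difference passed (-0.07 ± 0.11, adjusted p = 0.682 on NCD and -0.16 ± 0.10, adjusted p = 0.371 on SSD). Rgs3, a regulator of G protein signalling, lies 50678 bases from Alad by this measure. It did not pass either, at 0.07 ± 0.19 on NCD (adjusted p = 0.838) and 0.25 ± 0.25 on SSD (adjusted p = 0.574). The copy number of these genes was not measured here, and its part in the levels of Alad and Hdhd3 was not tested.

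**Figure D2:**
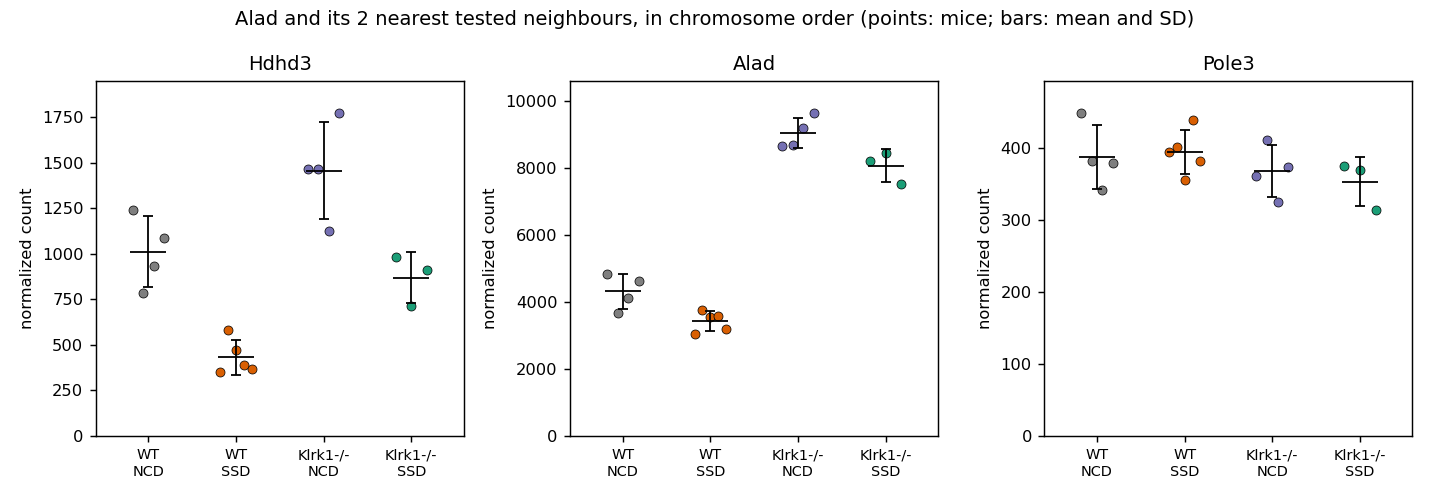
Normalized counts (y axis) of Hdhd3, Alad and Pole3 in each mouse (points) of the 4 groups (x axis), with the group mean and SD as bars. Alad spans 3039.7 to 4831 in the WT mice and 7510.1 to 9632.5 in the Klrk1-/- mice, while the genotypes overlap for Pole3.

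The 5 genes whose levels ran most closely with Alad over the 16 mice, by Pearson correlation of log2 values among 13068 genes, were Hyi (r = 0.936), Abtb1 (0.930), 9430038I01Rik (0.930), Sco2 (0.925) and Smpd2 (0.914). They are given as a description, since all 16 points share the 4 groups. Hyi, named for hydroxypyruvate isomerase and also on chromosome 4 (chr4:118217187-118219941), had group means of 1185, 1101, 2802 and 1981 in WT mice on NCD, WT mice on SSD, Klrk1-/- mice on NCD and Klrk1-/- mice on SSD. Sco2, a copper chaperone for cytochrome c oxidase on chromosome 15, had 2134, 2455, 6067 and 6089.9 in the same order.

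Uros, Urod and Ppox fell on SSD in WT mice. Uros (chr7:133287972-133311801, minus strand) encodes uroporphyrinogen III synthase, which closes the ring. It had 875.5, 746, 787 and 873 normalized counts in WT mice on NCD and 661, 708, 671, 657 and 698 in WT mice on SSD, with all 5 mice on SSD below all 4 on NCD. Klrk1-/- mice had 950.1, 916, 1079.5 and 911.5 on NCD and 690.5, 818 and 602.6 on SSD, again without overlap. Uros fell by 0.27 ± 0.08 on the log2 scale in WT mice (adjusted p = 0.0223) and fell by 0.46 ± 0.11 in Klrk1-/- mice (adjusted p = 0.0091). Between the genotypes it did not pass, at 0.23 ± 0.09 on NCD (adjusted p = 0.113), where the groups did not overlap, and 0.04 ± 0.10 on SSD (adjusted p = 0.84). In WT mice the call was lost without WT NCD replicate 1 or 5 or WT SSD replicate 4 (adjusted p up to 0.0589), and in Klrk1-/- mice it held with each of the 7 mice left out in turn.

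Urod (chr4:116847162-116851610, minus strand) encodes uroporphyrinogen decarboxylase, which trims the side chains of the ring and whose low activity causes porphyria cutanea tarda. It had 2727, 2162, 2379 and 2274 normalized counts in WT mice on NCD and 1494, 2119.7, 1959.5, 1909 and 2042 on SSD, again without overlap, and the lowest of all 16 mice was WT SSD replicate 1. The diets overlapped in Klrk1-/- mice, with 2097, 2205, 2029.6 and 2203 on NCD and 2189, 2331 and 2106 on SSD. Urod fell by 0.33 ± 0.11 on the log2 scale in WT mice (adjusted p = 0.0374), and the difference was 0.05 ± 0.08 in Klrk1-/- mice (adjusted p = 0.659). The difference between these 2 diet effects did not pass (interaction 0.38 ± 0.14, adjusted p = 0.192). Between the genotypes the log2 differences were -0.16 ± 0.09 on NCD (adjusted p = 0.252) and 0.22 ± 0.11 on SSD (adjusted p = 0.268). The call in WT mice was lost on leaving out any of 6 mice (WT NCD replicates 1, 3 and 5 and WT SSD replicates 1, 3 and 4, adjusted p up to 0.106) and with no variance trend (adjusted p = 0.0633). The 250 bases before the start of Urod (chr4:116851611-116851860, minus strand) lie outside the exons of the gene and hold 1 E-box, 1 Sp1 box and 1 CCAAT box, here in capitals, the latter 2 on the opposite strand.
Urod: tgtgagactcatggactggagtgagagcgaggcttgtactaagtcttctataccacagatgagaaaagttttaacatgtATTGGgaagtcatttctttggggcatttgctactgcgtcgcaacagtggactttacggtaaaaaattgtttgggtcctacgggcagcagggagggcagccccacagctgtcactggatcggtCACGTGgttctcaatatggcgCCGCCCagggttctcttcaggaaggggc

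Ppox (chr1:171103563-171108760, minus strand) encodes protoporphyrinogen oxidase, the second to last enzyme. Its normalized counts were 879, 948, 998.5 and 1088 in WT mice on NCD and 609.8, 817, 816, 847 and 852 in WT mice on SSD, where replicate 1 stood below the other 4. Klrk1-/- mice had 1239.6, 1329, 1434 and 1210.4 on NCD and 876, 929 and 843 on SSD. Mice on SSD lay below mice on NCD in both genotypes, and on NCD all Klrk1-/- mice lay above all WT mice. On SSD Ppox fell by 0.32 ± 0.11 on the log2 scale in WT mice (adjusted p = 0.044) and fell by 0.56 ± 0.09 in Klrk1-/- mice (adjusted p = 0.000623), and it rose by 0.41 ± 0.09 in Klrk1-/- against WT mice on NCD (adjusted p = 0.0157). On SSD the genotypes overlapped, with a log2 difference of 0.17 ± 0.12 (adjusted p = 0.403). The calls in Klrk1-/- mice and between the genotypes on NCD held with every mouse left out in turn (adjusted p 0.000947 to 0.00491 and 0.00987 to 0.0495). The call in WT mice was lost on leaving out any of 7 mice, all but WT NCD replicate 1 and WT SSD replicate 5 (adjusted p up to 0.115), and without WT SSD replicate 1 the difference was -0.23. It was also lost with no minimum mean (adjusted p = 0.0513) or no variance trend (0.0692). Of the 7 genes with a promoter window, Ppox had the most CCAAT boxes (CCAAT, present in 33.8% of all windows), 4, and the 30 bases around 2 of them are shown, at chr1:171108850-171108879 (-119 to -90, minus strand).
Ppox CCAAT boxes: cactgCCAATatggtgttttcATTGGtgaa

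The falls of Uros, Urod and Ppox in WT mice depend on how the mice are put on 1 scale. The sum of all normalized counts was lower on SSD, with medians of 25995266.5 on NCD and 20913201 on SSD in WT mice and 26741399 and 22511101 in Klrk1-/- mice. With every mouse scaled to the same total, which moved the median of all genes by 0.34, the differences of Uros, Urod and Ppox in WT mice turned to 0.08, 0.02 and 0.03 and none passed. The same scaling in Klrk1-/- mice moved the median of all genes by 0.25 and left Ppox at -0.30, which passed, and Uros at -0.20, which did not. Calls were also gained on that scale: in WT mice Cpox rose by 0.43 (adjusted p = 0.0161) and Fech by 0.40 (adjusted p = 0.00451), and in Klrk1-/- mice Cpox by 0.69 (adjusted p = 0.00567) and Urod by 0.31 (adjusted p = 0.0119). With quantile normalization Uros, Urod and Ppox were at -0.21, -0.19 and -0.28 in WT mice and did not pass (adjusted p = 0.0532, 0.153 and 0.0789). With the same total the split of all genes that passed moved from 2265 higher and 2303 lower to 6315 and 720 in WT mice and from 1723 and 2067 to 4828 and 806 in Klrk1-/- mice. Between the genotypes it moved from 823 and 856 to 562 and 803 on NCD and from 160 and 221 to 88 and 376 on SSD.

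Cpox (chr16:58490655-58537999, plus strand) encodes coproporphyrinogen oxidase. It had 2036, 2339, 1726 and 1644 normalized counts in WT mice on NCD and 1497, 1168, 1108 and 1765 in Klrk1-/- mice on NCD, and 1 Klrk1-/- mouse lay within the WT range. On SSD it had 1677, 2245, 2314.5, 1709 and 2325 in WT mice and 2165, 1475 and 1949 in Klrk1-/- mice. Cpox fell by 0.50 ± 0.15 on the log2 scale in Klrk1-/- against WT mice on NCD (adjusted p = 0.0479), at the edge of the threshold, and the call was lost on leaving out any of 6 mice (replicates 1, 2 and 3 of either genotype, adjusted p up to 0.139). It was also lost by edgeR with TMM (adjusted p = 0.054), with no minimum mean (0.0568), the same total (0.0502), quantile normalization (0.051) or no variance trend (0.109). On SSD the difference between the genotypes was -0.14 ± 0.16 (adjusted p = 0.616), and it turned sign without Klrk1-/- SSD replicate 2 (0.02). With diet Cpox did not pass, at 0.08 ± 0.14 in WT mice (adjusted p = 0.669) and 0.44 ± 0.17 in Klrk1-/- mice (adjusted p = 0.0691), where it passed by DESeq2 (adjusted p = 0.0363), with quantile normalization (adjusted p = 0.047) and without Klrk1-/- NCD replicate 4 or Klrk1-/- SSD replicate 2 (adjusted p from 0.0223).

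Fech (chr18:64585985-64623322, minus strand) encodes ferrochelatase, which places iron in the ring. Its normalized counts were 3168, 3059, 2561 and 2429 in WT mice on NCD and 2771, 2949, 2798, 2748 and 3188 in WT mice on SSD, with overlap. Klrk1-/- mice had 2548, 2499, 2666 and 2975.5 on NCD and 3487, 3133.6 and 3668 on SSD, with all 3 mice on SSD above all 4 on NCD. Fech rose by 0.36 ± 0.09 on the log2 scale on SSD in Klrk1-/- mice (adjusted p = 0.0104), and this held with each of the 7 mice left out in turn (adjusted p 0.00696 to 0.0487). In WT mice the difference was 0.05 ± 0.10 (adjusted p = 0.716), which passed at 0.40 with the same total (adjusted p = 0.00451) and at 0.24 with quantile normalization (adjusted p = 0.0407), and the difference between the diet effects did not pass (interaction 0.31 ± 0.13, adjusted p = 0.252). Between the genotypes it was -0.06 ± 0.10 on NCD (adjusted p = 0.706) and 0.25 ± 0.08 on SSD (adjusted p = 0.128).

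**Figure D3:**
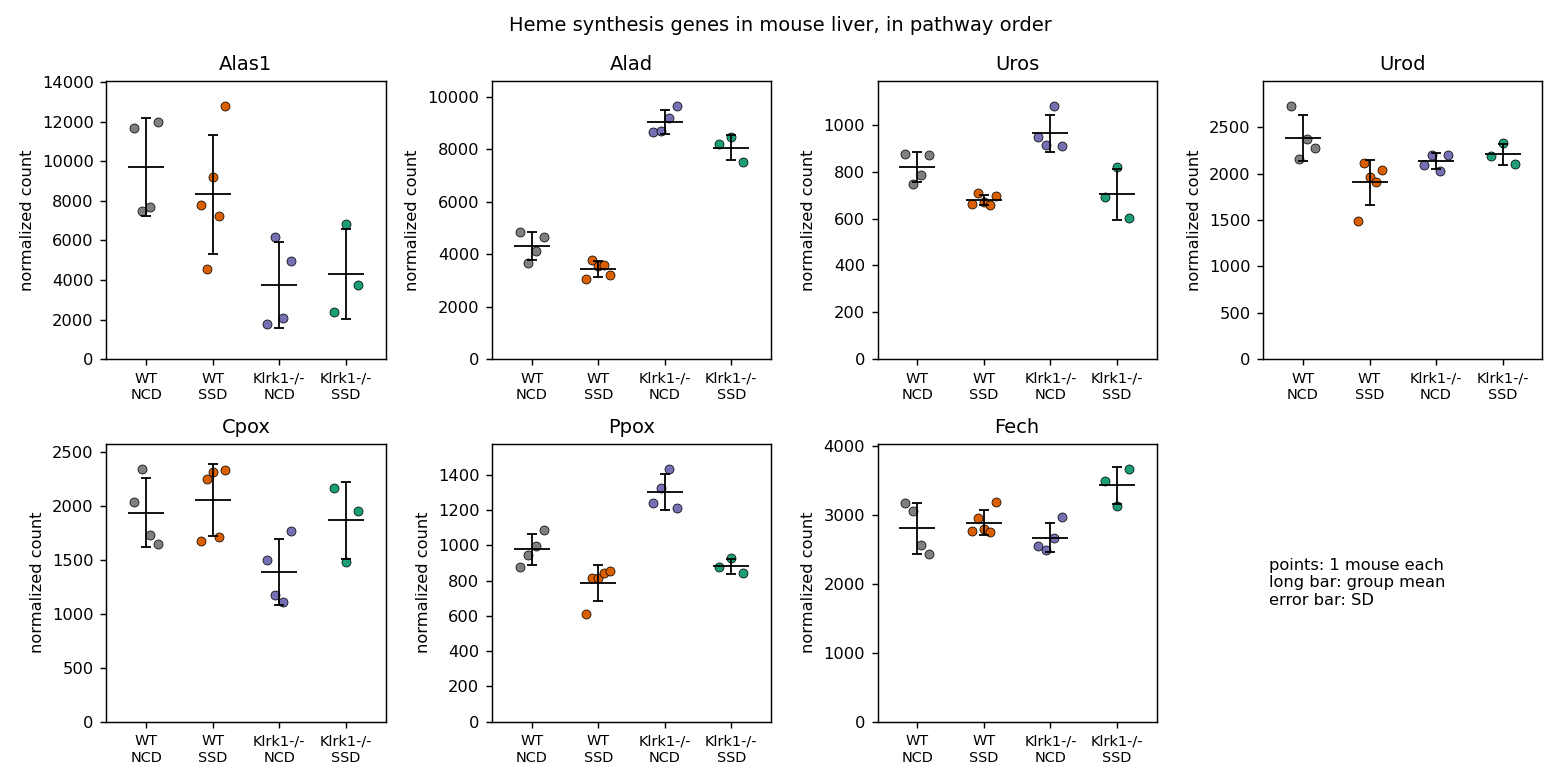
Normalized counts (y axis) of the 7 synthesis genes in pathway order, 1 panel per gene, in each mouse (points) of the 4 groups (x axis), with the group mean and SD as bars. Alad separates the genotypes on both diets, Uros and Ppox separate the diets in both genotypes, and Alas1 spreads from 1775 to 6197 within the Klrk1-/- mice on NCD alone.

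Of these genes Uros, Urod, Cpox and Ppox overlap a gene on the opposite strand (Bccip, Zswim5, Gpr15 and B4galt3). They share 4, 3440.0, 204 and 3277 exon bases, in a later GENCODE release than the one used for counting. The sources used here do not state whether reads were counted by strand, so reads of such a pair may not be told apart. Alas1, Alad, Fech, Hmox1 and Blvrb showed no such overlap. Among the other genes named here, overlaps were found for Alas2 and Apex2 (311 bases), Hmox2 and Cdip1 (6248 bases) and Pole3 and 4933430I17Rik (266 bases).

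Alas2, the form of the first enzyme that red cell precursors use, was present in these livers at 3874, 3468.5, 2849 and 2855 normalized counts in WT mice on NCD and 1536, 2163, 2356, 1827 and 2284 in WT mice on SSD. The Klrk1-/- mice stood at 2851, 3072, 3323 and 3752 on NCD and 2424, 1927 and 2787 on SSD. Mice on SSD lay below mice on NCD in both genotypes. Alas2 fell by 0.69 ± 0.14 on the log2 scale in WT mice (adjusted p = 0.00309) and fell by 0.46 ± 0.13 in Klrk1-/- mice (adjusted p = 0.0187), and the second call was lost without Klrk1-/- SSD replicate 1 or 2 (adjusted p up to 0.0657), with the same total (-0.20, adjusted p = 0.205) or with no variance trend (adjusted p = 0.0591). The summed level of 4 globin genes was 2512 to 4620.3 in WT mice on NCD, 709 to 7497 in WT mice on SSD, 976 to 7274 in Klrk1-/- mice on NCD and 2291 to 13185 in Klrk1-/- mice on SSD, with overlap of all groups. Klf1, a transcription factor of red cell precursors, fell with Alas2 in both genotypes, from 32.2 to 67.3 normalized counts in WT mice on NCD to 17.1 to 27.9 on SSD and from 56.6 to 88.3 in Klrk1-/- mice on NCD to 37.7 to 48.0 on SSD. The log2 differences of Klf1 were -1.23 ± 0.26 (adjusted p = 0.00363) and -0.77 ± 0.19 (adjusted p = 0.0108). Of 6 red cell precursor markers tested, Alas2 and Klf1 were the 2 that passed in each genotype, beside 34.9% and 29.4% of all genes. The other 4 were the globin genes, whose log2 differences were negative in WT mice and positive in Klrk1-/- mice. The median of the 6 was -0.60 in WT mice and 0.87 in Klrk1-/- mice, so Alas2 and Klf1 do not stand for the list. The part of red cell precursors in the level of Alas2 was not tested. Of the other red cell precursor markers, Gata1, Rhag and Epb42 were at 3 reads or fewer in every mouse.

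On the side of breakdown, Hmox1 (chr8:75820249-75827217, plus strand) had the largest fold change of the 9 on SSD in WT mice. Its normalized counts were 504, 379.6, 454 and 430.4 in WT mice on NCD and 1895, 932, 816.6, 981 and 908 in WT mice on SSD, where replicate 1 stood far above the other 4. The Klrk1-/- mice had 327, 394.4, 316 and 288 on NCD and 509.9, 532 and 518 on SSD. The diets did not overlap in either genotype, and on SSD all Klrk1-/- mice lay below all WT mice. On NCD 1 Klrk1-/- mouse lay within the WT range. Hmox1 rose on SSD by 1.26 ± 0.21 on the log2 scale in WT mice (adjusted p = 0.000841), a ratio of means of 2.5, and by 0.66 ± 0.11 in Klrk1-/- mice (adjusted p = 0.00116), a ratio of 1.57. Both held with every mouse left out in turn, and without WT SSD replicate 1 the rise in WT mice was 1.04. In Klrk1-/- against WT mice Hmox1 fell by 0.42 ± 0.12 on NCD (adjusted p = 0.041) and fell by 1.014 ± 0.23 on SSD (adjusted p = 0.0461). On NCD the call was lost on leaving out any of 5 mice (WT replicates 1 and 3 and Klrk1-/- replicates 1, 3 and 4, adjusted p up to 0.103), and with 1 model of 4 groups (adjusted p = 0.143), no minimum mean (0.0526) or no variance trend (0.0791). On SSD it was lost on leaving out any of 6 mice (WT replicates 2, 3 and 4 and each of the 3 Klrk1-/- mice, adjusted p up to 0.175), and without WT SSD replicate 1 the difference was -0.80 with an adjusted p of 0.000638. By edgeR with TMM scaling the adjusted p on SSD was 0.0538, and 6 other settings of the analysis also left it above 0.05, up to 0.0944. The difference between the diet effects of the 2 genotypes did not pass (interaction -0.60 ± 0.27, adjusted p = 0.273).

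Of the 13 macrophage markers 8 rose on SSD in WT mice (Adgre1, Ccr2, Cd5l, Cd68, Gpnmb, Marco, Timd4 and Trem2) and 4 in Klrk1-/- mice (Adgre1, Cd5l, Gpnmb and Trem2), with none downward, beside 34.9% and 29.4% of all genes that passed in either direction. In Klrk1-/- mice the summed level of the markers overlapped between the diets, with medians of 5929 on NCD and 6674 on SSD. Between the genotypes on SSD, Cd68 and Marco were lower in Klrk1-/- mice, and on NCD Cd163 was higher and Marco lower, which is 2 of 13 on SSD beside 2.9% of all genes and 2 of the 12 tested on NCD beside 13.1%. Cd68, a lysosomal protein of macrophages, had 172.5, 166, 211 and 229.5 normalized counts in WT mice on NCD and 1144.6, 554, 531, 775.5 and 726 in WT mice on SSD. The Klrk1-/- mice had 229.8, 255, 218 and 199 on NCD and 291, 271 and 276 on SSD. The sum of the 13 markers was 21115 in WT SSD replicate 1, the mouse with the most Hmox1, and at most 14603 in the other 4 mice of its group. The 5 genes most like Hmox1 over the 16 mice were Acot9 (Pearson r = 0.975), Ccl6 (0.970), Fkbp1a (0.968), Cd5l (0.965) and Tmem43 (0.963), of which Ccl6 is a chemokine and Cd5l a secreted protein of macrophages. The mice of the 4 groups are the points of these correlations, which are a description. The part of macrophage number in the level of Hmox1 was not tested.

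Blvrb (chr7:27147403-27165569, plus strand) encodes biliverdin reductase B, also known as flavin reductase. It had 3599.8, 2159.7, 2624 and 3277 normalized counts in WT mice on NCD and 2875, 4758, 3914, 4788 and 4024 in WT mice on SSD, where replicate 1 lay within the range on NCD. In Klrk1-/- mice it had 2848, 3007.5, 3261 and 2902 on NCD and 5208, 6653 and 4482 on SSD, without overlap. Blvrb rose on SSD by 0.84 ± 0.12 on the log2 scale in Klrk1-/- mice (adjusted p = 0.000339), which held with each of the 7 mice left out in turn, and by 0.49 ± 0.17 in WT mice (adjusted p = 0.0458). In WT mice the call was lost on leaving out any of 6 mice (WT NCD replicates 2 and 3 and WT SSD replicates 2 to 5, adjusted p up to 0.136), and without WT SSD replicate 1 the rise was 0.61. It was also lost by edgeR with TMM (adjusted p = 0.0529), with no minimum mean (0.0543) or no variance trend (0.0779). Between the genotypes it did not pass, at 0.07 ± 0.14 on NCD (adjusted p = 0.761), which turned sign without WT NCD replicate 2 (-0.07), and 0.42 ± 0.18 on SSD (adjusted p = 0.192). WT SSD replicate 1, the mouse with the most Hmox1, had the least Blvrb of its group. The first 122 bases of the promoter window of Blvrb (chr7:27147153-27147274, plus strand, -250 to -129) lie outside its exons and are shown for their 3 Sp1 boxes, in capitals and all on the opposite strand.
Blvrb: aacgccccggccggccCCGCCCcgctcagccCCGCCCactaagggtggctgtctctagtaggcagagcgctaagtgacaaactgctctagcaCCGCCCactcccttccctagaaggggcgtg

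The sister genes of Hmox1 and Blvrb passed in none of the 4 comparisons by limma as set here. Hmox2, the constitutive heme oxygenase, had 1082, 903, 1005 and 1036 normalized counts in WT mice on NCD and 1185, 1091, 1040.2, 1093 and 1131 in WT mice on SSD. The Klrk1-/- mice had 1198, 1328, 1145 and 1236 on NCD and 1240.0, 1282.5 and 1430.5 on SSD, above the WT mice of the same diet without overlap. The genotype differences of Hmox2 were 0.29 ± 0.09 on NCD (adjusted p = 0.0506), just short of the threshold, and 0.25 ± 0.08 on SSD (adjusted p = 0.109). On NCD Hmox2 passed under 8 of 21 alternatives, among them edgeR with TMM (adjusted p = 0.0447), DESeq2 (adjusted p = 0.0239), 1 model of 4 groups (adjusted p = 0.0213) and leaving out WT NCD replicate 1 (adjusted p = 0.0481). On SSD it passed by DESeq2 (adjusted p = 0.0416), and with the same total it passed between the diets, at 0.49 in WT mice (adjusted p = 0.000807) and 0.36 in Klrk1-/- mice (adjusted p = 0.0127). Blvra, the main biliverdin reductase of the adult, had 353, 251, 268.5 and 259 and 276, 243, 199.9, 221 and 179 in WT mice on NCD and on SSD. In Klrk1-/- mice it had 271, 292, 295 and 269 and 238.5, 255 and 222. SSD against NCD gave Blvra log2 differences of -0.34 ± 0.15 in WT mice (adjusted p = 0.0895) and -0.24 ± 0.10 in Klrk1-/- mice (adjusted p = 0.0907), where Blvrb gave 0.49 and 0.84. Blvra passed in WT mice without WT SSD replicate 1, at -0.42 (adjusted p = 0.0333), and with 1 model of 4 groups (adjusted p = 0.0358).

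**Figure D4:**
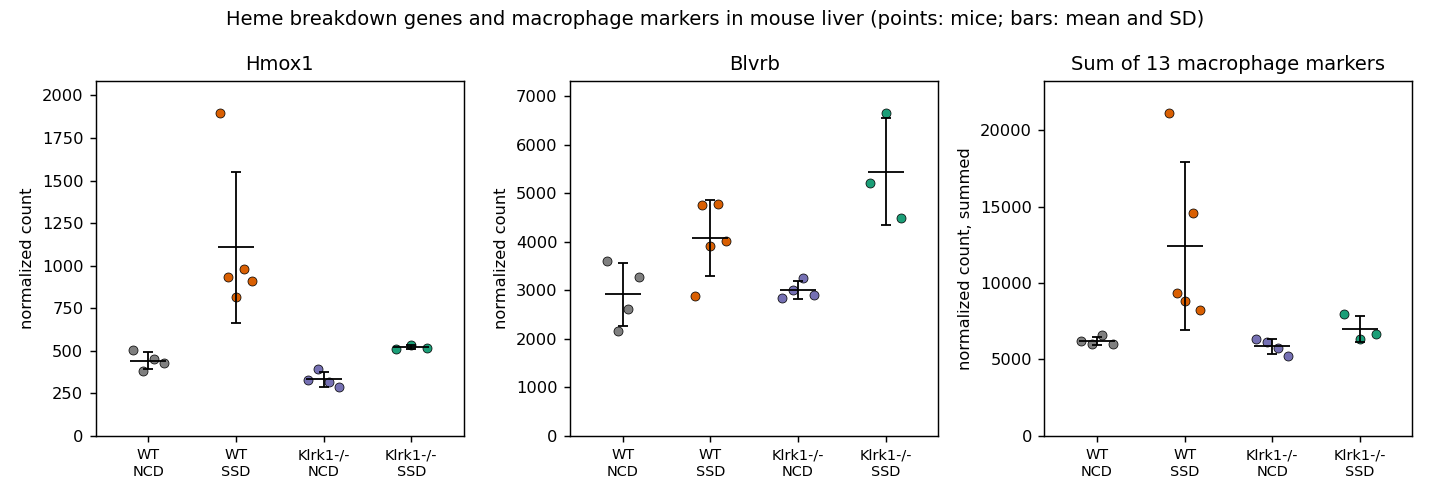
Normalized counts (y axis) of Hmox1 and Blvrb and the summed normalized count of 13 macrophage markers in each mouse (points) of the 4 groups (x axis), with the group mean and SD as bars. WT SSD replicate 1 is highest for Hmox1 (1895) and for the marker sum (21115) and lowest of its group for Blvrb (2875).

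Of 34 other genes of the heme pathway, covering mitochondrial import, regulation, transport, scavenging and bilirubin disposal, 6 rose and 5 fell on SSD in WT mice, and 9 rose and 4 fell in Klrk1-/- mice, where 34.9% and 29.4% of all genes passed in either direction. Flvcr2, a heme and choline transporter, had 28.9, 21.1, 11.7 and 17.7 normalized counts in WT mice on NCD and 223, 107, 69.5, 123 and 118 on SSD. It rose by 2.59 ± 0.32 on the log2 scale in WT mice (adjusted p = 0.000107) and by 2.62 ± 0.37 in Klrk1-/- mice (adjusted p = 0.00035), where it had 31, 8.71, 33.6 and 24.6 on NCD and 138, 161 and 123 on SSD. Slc48a1, which carries heme out of endosomes and lysosomes, rose by 0.90 ± 0.09 (adjusted p = 2.70e-05) and 0.96 ± 0.10 (adjusted p = 4.92e-05), from 887 to 1058 on NCD over both genotypes to 1600 to 2251 on SSD. Abcg2, an exporter of porphyrins, rose by 0.47 ± 0.13 in WT mice (adjusted p = 0.0178) and 0.53 ± 0.12 in Klrk1-/- mice (adjusted p = 0.00569). Besides Alas2, Slc25a38, the mitochondrial glycine carrier that feeds the first step, and Tmem14c, which serves the import of protoporphyrinogen, fell in both genotypes, named here after their values were seen. The median log2 fold change of the 34 genes was -0.01 in WT mice and 0.12 in Klrk1-/- mice.

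Por is the reductase that passes electrons to the cytochromes P450 and to heme oxygenase. Of the 34 genes it alone passed the diet by genotype interaction, beside 0.88% of all genes. It had 3292, 4254, 3366 and 3682 normalized counts in WT mice on NCD and 6656, 6098, 6924, 7847.5 and 7764.5 on SSD. In Klrk1-/- mice it had 3162, 3180.5, 3337 and 3378 on NCD and 10415, 10347 and 11002 on SSD, and these 3 mice lay above all others. Por rose on SSD by 0.95 ± 0.11 on the log2 scale in WT mice (adjusted p = 5.39e-05) and by 1.70 ± 0.07 in Klrk1-/- mice (adjusted p = 3.33e-08), and the interaction was 0.74 ± 0.13 (adjusted p = 0.0156). Without Klrk1-/- SSD replicate 3 the adjusted p of the interaction was 0.0523, the only one of the 16 mice whose omission ended the call, and with quantile normalization the interaction was 0.61 (adjusted p = 0.0678). On SSD Por rose by 0.59 ± 0.10 in Klrk1-/- against WT mice (adjusted p = 0.0185), a call that was lost on leaving out any of the 3 Klrk1-/- mice (adjusted p up to 0.0878), and it was the only 1 of the 34 genes to pass there, beside 2.9% of all genes. On NCD Cd163, the scavenger receptor for hemoglobin, rose by 0.53 ± 0.13 (adjusted p = 0.0259) and Hpx, the plasma protein hemopexin that binds free heme, fell by 0.44 ± 0.12 (adjusted p = 0.0373) in Klrk1-/- against WT mice. With Ppargc1a and Nr1d1 above, 4 of the 34 passed on NCD, beside 13.1% of all genes. The call of Cd163 was lost with 1 model of 4 groups (adjusted p = 0.271), the same total (adjusted p = 0.062) or no variance trend (adjusted p = 0.0602), and that of Hpx with 1 model of 4 groups (adjusted p = 0.115), no minimum mean (adjusted p = 0.135) or quantile normalization (adjusted p = 0.0541). The call of Cd163 was also lost on leaving out any of 4 mice (WT replicates 1 and 3 and Klrk1-/- replicates 1 and 2) and that of Hpx on leaving out any of 6 (WT replicates 1 and 3 and all 4 Klrk1-/- mice). Of 5 heme-using proteins outside the P450 families, Cycs and Cyc1 (cytochromes c and c1) fell on SSD in WT mice and Cycs in Klrk1-/- mice, beside 34.9% and 29.4% of all genes.

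**Figure D5:**
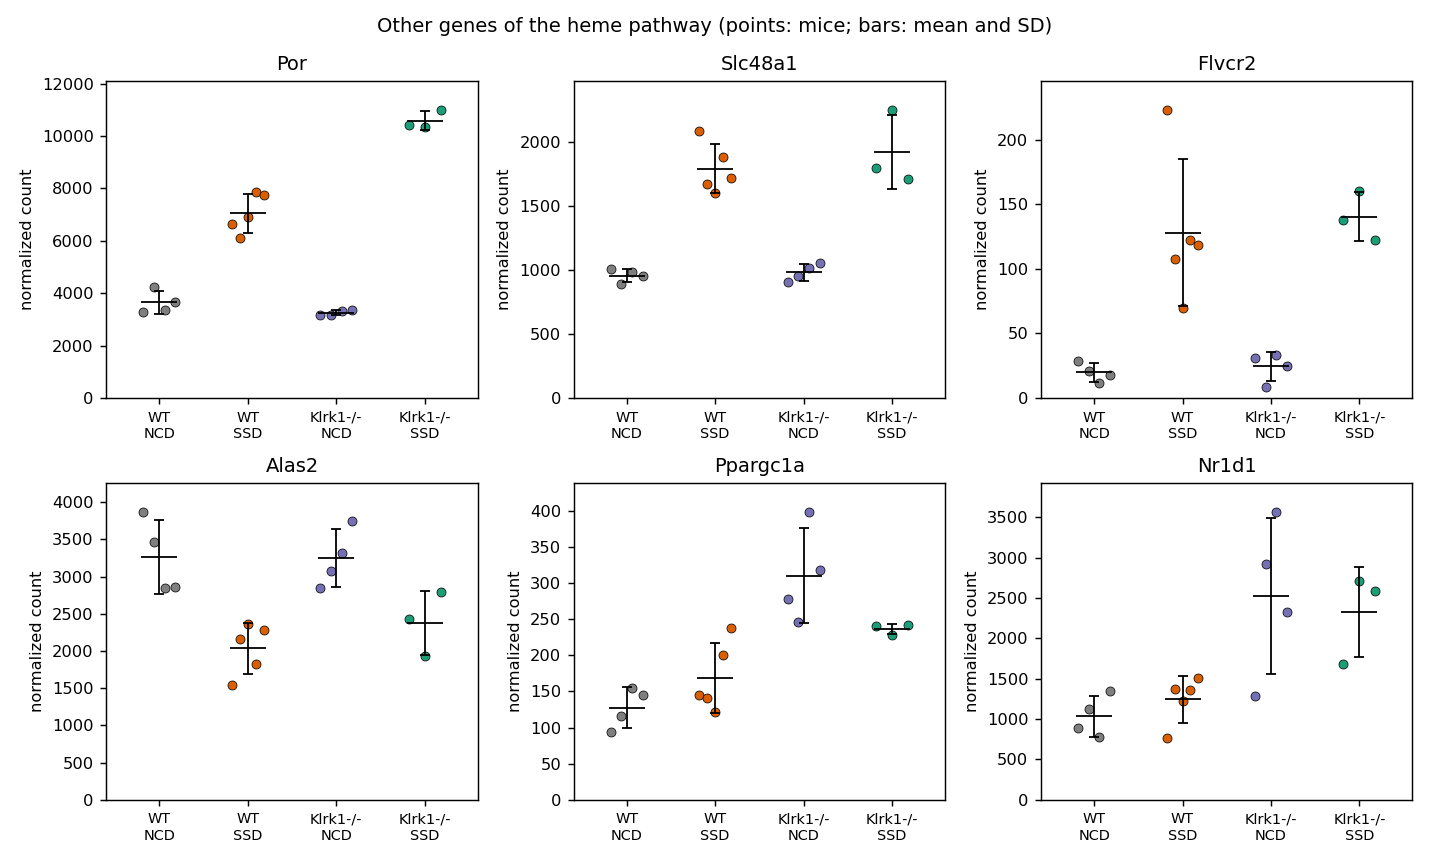
Normalized counts (y axis) of Por, Slc48a1, Flvcr2, Alas2, Ppargc1a and Nr1d1 in each mouse (points) of the 4 groups (x axis), with the group mean and SD as bars. Por reaches 10347 to 11002 in Klrk1-/- mice on SSD and 6098 to 7847.5 in WT mice on SSD.

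None of the 8 tested members passed the interaction by limma, and by edgeR or DESeq2 the count was also 0. The interaction estimates of the 8 tested members ran from -0.60 ± 0.27 for Hmox1 (adjusted p = 0.273) to 0.54 ± 0.56 for Alas1 (adjusted p = 0.647). The interaction of Cpox was 0.35 ± 0.24 (adjusted p = 0.457), of Blvrb 0.35 ± 0.24 (adjusted p = 0.46), of Ppox -0.24 ± 0.15 (adjusted p = 0.41) and of Uros -0.19 ± 0.13 (adjusted p = 0.472). With 3 to 5 mice per group these values do not show that the genotypes responded alike. At an unadjusted p under 0.05, 2256 of 13068 genes passed the interaction, as against 115 after adjustment.

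Around the members other than Alad, genes within 100 kb by lowest coordinate passed in some comparisons. Of those tested, Glyctk near Alas1 fell on SSD in WT mice, Eif2b3 near Urod fell on SSD in both genotypes, and Atp8b1 near Fech fell on SSD in WT mice and was lower in Klrk1-/- than in WT mice on NCD. Also near Fech, Nars rose on SSD in Klrk1-/- mice. Near Blvrb, Pld3 rose on SSD in both genotypes, Sertad1 rose on SSD in WT mice, and Sertad1 and Sertad3 were higher in Klrk1-/- than in WT mice on NCD. Near Ppox, where 12 of 15 such genes were tested, Tomm40l and Pfdn2 fell on SSD in both genotypes, Fcer1g and B4galt3 rose in WT mice and Nr1i3, the nuclear receptor CAR, rose in Klrk1-/- mice. Near Hmox1, Mcm5 rose on SSD in WT mice and was lower in Klrk1-/- than in WT mice on SSD. No tested neighbour of Uros or Cpox passed in any of the 4 comparisons. Tested neighbours numbered 5 for Alas1, 3 for Uros, 2 for Urod, 1 for Cpox, 2 for Fech, 2 for Hmox1 and 4 for Blvrb. Of all genes, 34.9% passed on SSD in WT mice and 29.4% in Klrk1-/- mice. Between the genotypes 13.1% of all genes passed on NCD and 2.9% on SSD.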

How the data were processed

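Whole-liver RNA of 16 mice was sequenced as single reads, and per the labels and methods the authors used STAR for alignment (GRCm39) and FeatureCounts for the reads of each gene (GENCODE M26). The deposited signal values are normalized counts, made by the authors by dividing the reads of each gene by 1 factor per mouse. In all columns 100% of the values returned to whole reads (tolerance 0.02), and those reads gave the depth and entered the count models. The GC content of each gene was deposited by the authors as a fraction and was not used in a test. No per-sample column was left out.

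Values were tested with limma 3.58.1 (R 4.3.3, moderated with a variance trend) on log2(normalized count + 1) over genes with a mean of at least 10 in the mice of a comparison. Each comparison used its own groups only, and the interaction used all 4. P-values were adjusted by Benjamini-Hochberg over all genes tested, with a threshold of 0.05. The scripts were tested on simulated data. Alternatives were other pseudocounts, minimum means, scalings and variance settings, edgeR 4.0.16 and DESeq2 1.42.0 on the recovered reads, 1 model of 4 groups, the replicate block, fold limits, and leaving out each mouse in turn.

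The members, gene lists and tests were chosen with earlier results of these data known. The text names all members, Alas2, Hmox2 and Blvra, up to 4 other pathway genes past the threshold per comparison by size of change, all tested neighbours of Alad and those past the threshold near the others, and the 5 genes most correlated with Alad and with Hmox1. Regulators, marker lists and promoter motifs are given as counts and values, and some items are not reported here. Promoter sequences came from RefSeq (GRCm38.p6), placed in GRCm39, and matched 7 of the 9 members. Exon overlaps and canonical transcript lengths came from a later GENCODE release than the one used for counting. Strand of counting is not given in the sources used here, and the methods and labels name different library kits.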

Additional observations from a re-analysis of the deposited data

Results flagged for a closer look

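In 2 of the 27 sets of 4 or 5 mice of 1 group checked, 1 for each of the 9 genes in the 3 groups large enough, a single mouse stood apart by Dixon's criterion, which chance gives in about 1 of 20 such sets. Both were WT SSD replicate 1, which also stood apart from its group over all genes. Its Ppox, at 609.8 normalized counts, was the lowest of its group, and its gap to the next mouse was 0.848 of the range of the group. Its Hmox1, at 1895 normalized counts, was the highest, also with a gap of 0.848 of the range. The same mouse had the highest sum of macrophage markers, at 21115. Without it the rise of Hmox1 on SSD in WT mice was 1.04, and the fall of Ppox was -0.23 and no longer passed. The part of those markers in either value was not tested.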

How the results depend on the processing

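Of 1959 single-gene values under the alternatives, 1781 kept their direction and side of the threshold, while 108 lost and 25 gained a pass. For Alad 5 values (3 with a change of sign) moved by more than the SE of the log2 difference as set here. Another 40 values, of other genes, turned sign. The cause was not tested. The number of the 8 members past the threshold, 5 in WT mice on SSD against NCD, was 3 with no minimum mean or quantile normalization, 2 with no variance trend, 1 with a 2-fold or 1.5-fold limit and 1 to 4 with a mouse left out. Of 5 in Klrk1-/- mice, 0 were past a 2-fold and 2 past a 1.5-fold limit. The 4 between the genotypes on NCD became 2 with no minimum mean, 1 with no variance trend or either fold limit, and 2 to 4 with a mouse left out. On SSD the 1 (Hmox1) became 0 with a pseudocount of 10, a minimum mean of 50, quantile normalization, no variance trend, robust variances or edgeR with either scaling, and 0 to 1 with a mouse left out. Over all genes the counts moved beyond 1.5 times from 4568 to 7035 with the same total and 2974 with the block and no WT SSD replicate 4 (3700.0 without that mouse and no block; WT diet), from 1679 to 765 with no variance trend (genotypes on NCD), from 381 to 176 with no variance trend, 1220.0 by DESeq2, 957 with 1 model of 4 groups and 710.0 with the block and no WT SSD replicate 4 or 5 (genotypes on SSD), and from 115 to 67 with no variance trend, 460.0 by DESeq2 and 42 with the block (interaction). With a mouse left out they ranged from 3614 to 4460.0 (WT diet), 2397 to 3662 (Klrk1-/- diet, with 2397 without Klrk1-/- SSD replicate 1), 717 to 2189 (genotypes on NCD), 45 to 717 (genotypes on SSD) and 37 to 187 (interaction, with 39 and 37 without Klrk1-/- SSD replicates 1 and 3, 187 without WT SSD replicate 5, and 63 to 76 without WT NCD replicate 1 or 3, WT SSD replicate 4 or Klrk1-/- NCD replicate 1 or 2). A 2-fold limit left 1179, 704, 219, 151 and 70.0 genes in the 5 tests.

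The same total turned the sign in the WT diet comparison of Alad (0.0157), Alas1 (0.0805), Uros (0.0754), Urod (0.0161), Ppox (0.0272) and Blvra (0.0046). It did so in the Klrk1-/- diet comparison for Alad (0.0907), Blvra (0.0157), Pole3 (0.2001) and Rgs3 (0.0608), between the genotypes on SSD for Uros (-0.0736) and Blvra (-0.008), and on NCD for Blvra (-0.019). Quantile normalization turned Alas1 in WT mice (0.0535), Alad in Klrk1-/- mice (0.0398) and Alas2 between the genotypes on NCD (0.0264). Blvra on NCD also turned by edgeR with RLE (-0.0042) and DESeq2 (-0.004). With a mouse left out, values that turned sign ranged over -0.0153 to 0.1125 (Fech) and -0.0292 to 0.1017 (Pole3) in the WT diet comparison, over -0.1243 to 0.6369 (Alas1) and -0.1146 to 0.0252 (Pole3) in the Klrk1-/- diet comparison, over -0.0656 to 0.1801 (Blvrb), -0.0718 to 0.0866 (Alas2), -0.0462 to 0.1183 (Blvra) and -0.124 to 0.1958 (Rgs3) between the genotypes on NCD, over -0.0734 to 0.1471 (Uros) and -0.2607 to 0.0159 (Cpox) on SSD, and over -0.0984 to 0.0132 (Hmox2) and -0.0121 to 0.178 (Blvra) in the interaction.

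Whether replicate numbers pair the mice is not stated, and correlations of deviations from the group means do not settle it. Between the diets in Klrk1-/- mice, same-numbered mice gave -0.03 to 0.153 and differently numbered mice -0.156 to 0.095. Between the genotypes on SSD these ranges were -0.02 to 0.237 and -0.184 to 0.139. In the WT diet comparison they were -0.146 to -0.038 and -0.145 to 0.243. Between the genotypes on NCD they were -0.096 to 0.083 and -0.201 to 0.216. The replicate block kept only mice whose number occurs in both groups of a comparison, so it also left out WT SSD replicate 4 or Klrk1-/- NCD replicate 4 (diet comparisons), or WT replicate 5 and Klrk1-/- replicate 4 (NCD) and WT replicates 4 and 5 (SSD), while the interaction kept all 16 mice, and the effects of the block and of the fewer mice cannot be told apart where both changed. In that setting Uros, Urod and Blvrb in WT mice on SSD against NCD, Hmox1 and Hpx between the genotypes on NCD and Hdhd3 on SSD no longer passed, where Uros, Urod and Blvrb had already lost their calls without WT SSD replicate 4 and no block (adjusted p = 0.0513, 0.0646 and 0.101). Alas1 (0.47) and Cpox (0.56) passed on SSD against NCD in Klrk1-/- mice, of which Cpox passed without Klrk1-/- NCD replicate 4 and no block (adjusted p = 0.0227), and with the replicate block 2 of the 8 members passed in the WT diet comparison, Pole3 there was -0.0093, and Blvra between the genotypes on NCD was -0.0086.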
